A study of Mus musculus with 3 samples.

Results

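The miR-3096 and miR-3473 miRNAs were taken as every listed miRNA whose name starts with miR-3096 or miR-3473, with any letter or arm. This gave 7 of the 693 miRNAs listed for TAG1 ES cells: miR-3096-5p, miR-3096-3p, miR-3096b-5p, miR-3096b-3p, miR-3473, miR-3473b and miR-3473d. The rule used names, but the group was selected on the levels and ratios of these same libraries, so that the values below are a description and no test was made of them.

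TAG1 is a mouse ES cell line in which doxycycline (Dox) induces Alk4*, a constitutively active receptor that phosphorylates Smad2/3, the transcription factors of the TGF-β pathway. Each of the 3 conditions had 1 short RNA library. Cells for the 0 hr library were untreated and grown with serum (FBS). For the 16 hrs SB library (the SB library), Alk4 was inhibited over 16 hrs with 30 µM SB-431541, as the labels spell it, or SB-431542 in the methods of the study. For the 16+12 hrs library (the Dox library), 12 hrs of 1 µg/µl Dox followed the same inhibition. Cells of all conditions were TAG1 cells, a single line, with LIF, and both treated cultures were in serum replacement (KSR), so the medium and the treatment cannot be told apart in any comparison with the 0 hr library. The deposited levels were scaled to 9895513 to 11354692 reads per library, numbers recovered from the values themselves, and reads on listed miRNAs were 24.1% to 33.4% of these. The recovered numbers are below the totals of sequenced reads that the study states, so these shares are not shares of all reads sequenced. With 1 library per condition the variation between cultures was not measured. Intervals below are 95% exact intervals for counting error only. The ES cell label was checked with 18 miRNAs of the miR-290 and miR-302 clusters, all of which were listed, with a summed level of 81837 rpm (reads per 1000000 of the recovered reads of the library) in the 0 hr library, 65181 rpm in the SB library, the lowest, and 93788 rpm in the Dox library.

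miRNAs are short RNAs, cut from hairpin precursors, that direct Argonaute proteins to messenger RNAs through their seed, bases 2 to 8 of the mature sequence. Names with high numbers were registered late, mostly from deep sequencing, and some were found to overlap other classes of RNA. One such class is the small nucleolar RNAs (snoRNAs), which guide chemical modification of other RNAs. Another is the short interspersed elements, such as the rodent B2 family, which were copied through the genome by retrotransposition.

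The mature sequences of the miR-3473 names are shown first because reads were aligned to the mature sequences before the hairpins, and reads on a hairpin were counted for the mature miRNA they overlapped. They were read from RefSeq for GRCm38, where miR-3473b and miR-3473d matched by name and miR-3473 matched as an older name of miR-3473a. The seed is in capitals. miR-3096-5p, miR-3096-3p, miR-3096b-5p and miR-3096b-3p are named only.
miR-3473b: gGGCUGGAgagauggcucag
miR-3473: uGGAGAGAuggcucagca
miR-3473d: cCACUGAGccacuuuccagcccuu

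miR-3473b and miR-3473 have a run of 16 bases in common, uggagagauggcucag, but it starts at different positions, so their seeds differ. The methods used reads longer than 16 bases and allowed no mismatch, so no such read could lie within both mature sequences as RefSeq gives them. Their hairpins share a longer run of 18 bases, gcuggagagauggcucag, which lies wholly within mature miR-3473b. A read made of this run would have been assigned to miR-3473b at the first alignment, whichever hairpin it came from. miR-3473d lies on the 5′ arm of its hairpin, whereas miR-3473b and miR-3473 lie on the 3′ arm of theirs, and it shares at most 8 bases in the antisense direction with mature miR-3473b. Of the other listed miRNAs with a RefSeq sequence, miR-674-5p had the seed of miR-3473d, and none shared a seed or a run of 12 bases with miR-3473b or miR-3473. RefSeq also has miR-3473e, whose seed is that of miR-3473b, but it was not listed.

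The hairpins were placed on GRCm38 with the GENCODE annotation, and all 4 that could be placed are within introns. The miR-3473b hairpin (chr10:41670739-41670793, + strand) is in an intron of Ccdc162 and runs antisense to that gene. It is printed here, with the mature miRNA in capitals, because the other arm is an exact complement of the mature sequence.
miR-3473b hairpin: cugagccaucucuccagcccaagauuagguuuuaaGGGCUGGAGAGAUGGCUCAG
The mature sequence has a perfect complement of 20 of its 20 bases in the 55 bases of this hairpin, against 11 of 18 bases for miR-3473 and 12 of 24 for miR-3473d. Folded with RNAfold, the miR-3473b hairpin had a minimum free energy of -42.5 kcal/mol, or -0.77 kcal/mol per base. This was the lowest value per base of the 313 hairpins of listed miRNAs with a sequence, whose median was -0.43 kcal/mol per base. The miR-3473d hairpin (chr8:111016450-111016530, − strand, in an intron of Ddx19b) was at place 6 with -0.64 kcal/mol per base, and the hairpin of miR-3473 (chrX:162874918-162874995, − strand, in an intron of Syap1) was at place 83.

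The hairpin gene named Mir3096 lies at chr5:23710991-23711061 on the − strand, in an intron of the noncoding gene AI506816, with the same strand as its host. GENCODE classes this gene of 71 bases as a snoRNA and not as a miRNA. Of the listed miRNAs, 617 had a hairpin gene classed as miRNA and 69 had no gene of that name. The 7 that were classed as snoRNA were miR-3096-5p and miR-3096-3p with miR-3068-5p, miR-3068-3p, miR-677-5p, miR-677-3p and miR-5117-3p. No gene was found under the name of miR-3096b.

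The sequence of miR-3473b was also looked for in annotated spliced transcripts, because reads were aligned to miRBase and a read carries no trace of its transcript. Introns were not searched, so genes with a copy only in an intron were not counted. An exact copy was present on the transcribed strand in 344 of 53248 genes that have no miRNA transcript (0.646%), 236 of them with a protein-coding transcript, and on the opposite strand in 390 genes. For miR-3473 these numbers were 146 and 135 genes. For miR-3473d no gene had a copy in these transcripts on either strand, although its hairpin lies in an intron of Ddx19b. Over the 520 listed miRNAs with a sequence the median was 0 genes on each strand, and 4 had at least 10 genes on the transcribed strand, namely miR-3470b (546 genes), miR-3473b, miR-3473 and miR-3471 (34 genes). miR-3470b and miR-3471 were named after their values were seen, and neither was above 1.11 rpm in any library. The letters of miR-3473b also form part of the start of B2 elements. A copy on either strand was present in 32 of 32851 promoter sequences of 250 bases before and 50 bases after a gene start (0.0974%). How many of the reads came from the hairpin and how many from other copies was not tested.

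**Figure D1:**
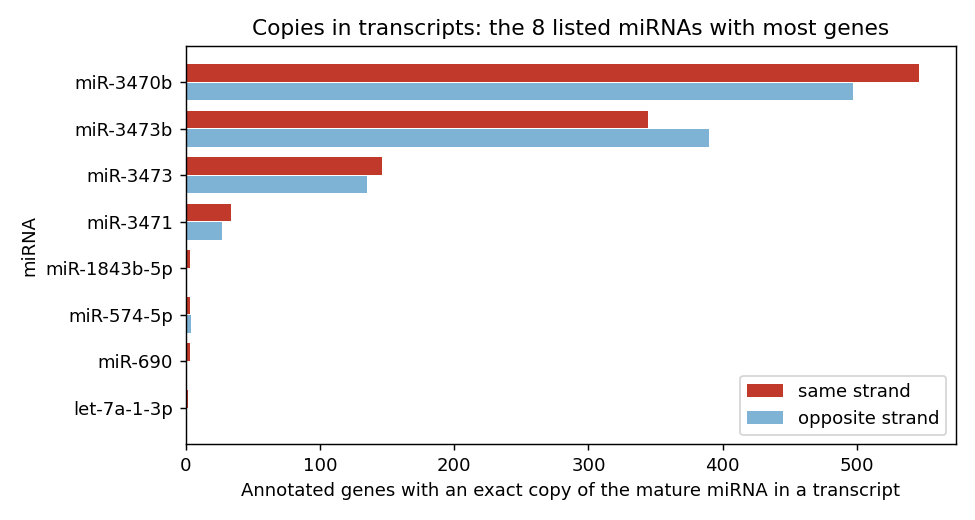
Number of annotated genes (horizontal axis) with an exact copy of a mature miRNA in at least 1 transcript, on the transcribed strand (red bars) and on the opposite strand (blue bars), for the 8 listed miRNAs with most genes. miR-3473b has 344 genes on the transcribed strand and miR-3473 has 146, and from miR-1843b-5p on the bars are at 4 genes or fewer.

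miR-3473b was the most abundant of the group by far. The 0 hr library held 20270 rpm of it (20186 to 20354), the SB library 19386 rpm (19305 to 19467) and the Dox library 7229.7 rpm (7177 to 7283). The level was thus close at 0 hr and 16 hrs SB and low in the Dox library, and none of the counting intervals overlapped. Behind these levels were 222072, 220119 and 71542 reads. Among the 693 listed miRNAs it took place 2 in the 0 hr library, place 1 in the SB library and place 10 in the Dox library. It took up 7.16% of the reads on listed miRNAs in the 0 hr library, 8.04% in the SB library and 2.17% in the Dox library.

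For miR-3096-5p the 0 hr library gave 173 rpm (166 to 181), the SB library 1382 rpm (1360 to 1403) and the Dox library 84.6 rpm (78.9 to 90.5). It was therefore high in the SB library alone, where it moved from place 115 among listed miRNAs to place 38, and it was at place 161 in the Dox library. These levels came from 1900, 15688 and 837 reads. The corresponding levels of miR-3096b-5p were 174, 1386 and 84.3 rpm. The read numbers of the pair differed by 10 in the 0 hr library, 44 in the SB library and 3 in the Dox library, or at most 0.524% of the larger number. By the methods, a read that fits several miRNAs equally well was counted for each of them, so counts and medians over the group are given below both for the 7 names and for 6, with miR-3096b-5p left out.

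The opposite arms were near the lower limit of detection. miR-3096-3p had 11, 19 and 4 reads in the 0 hr, SB and Dox libraries, which corresponds to 1.00, 1.67 and 0.404 rpm. miR-3096b-3p had 55, 21 and 17 reads, or 5.02, 1.85 and 1.72 rpm. Of the reads of miR-3096, the 5p arm made up 99.4% (98.97 to 99.71, Clopper-Pearson) in the 0 hr library, 99.9% (99.81 to 99.93) in the SB library and 99.5% (98.79 to 99.87) in the Dox library. For miR-3096b the share was 97.2% (96.37 to 97.88), 99.9% (99.80 to 99.92) and 98.0% (96.82 to 98.83). Both hairpins were given nearly the same 5p reads, which could not be divided between them. The shares are therefore not those of each hairpin alone, and the intervals leave this out. The 3p names differed more from each other at 0 hr, with 11 and 55 reads, than the 5p names, with 1900 and 1910. The 7.97-fold rise of miR-3096-5p in the SB library stood beside 19 reads of miR-3096-3p against 11 at 0 hr and 21 reads of miR-3096b-3p against 55.

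The level of miR-3473 was 21.5 rpm (18.9 to 24.5) in the 0 hr library, 7.40 rpm (5.90 to 9.16) in the SB library and 37.3 rpm (33.6 to 41.3) in the Dox library, from 236, 84 and 369 reads. Its lowest level was in the SB library and its highest in the Dox library, whereas miR-3473b was lowest in the Dox library. miR-3473d had 11, 18 and 10 reads, or 1.00, 1.59 and 1.01 rpm, and its 3 intervals overlapped. The number of miR-3473b reads per read of miR-3473 was 941 in the 0 hr library, 2620.5 in the SB library and 194 in the Dox library.

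**Figure D2:**
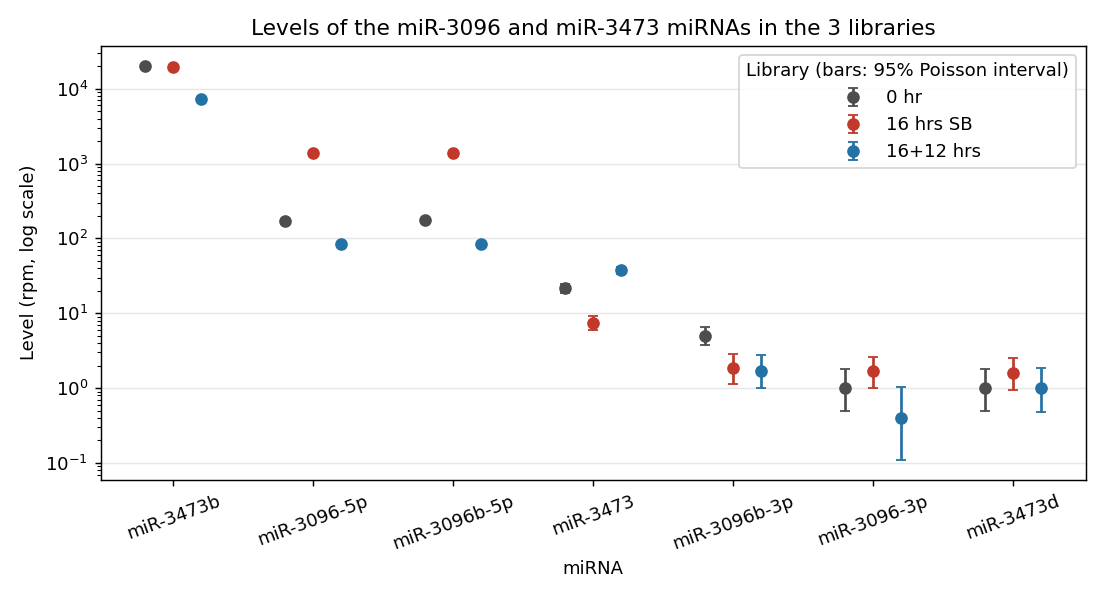
Level of each of the 7 miRNAs in rpm (vertical axis, log scale) at 0 hr (grey), 16 hrs SB (red) and 16+12 hrs (blue), with 95% exact Poisson intervals that are hidden by the points at high levels. The 2 miR-3096 5p names are highest at 16 hrs SB, at 1382 and 1386 rpm, miR-3473b is lowest at 16+12 hrs, at 7229.7 rpm, and miR-3473 is lowest at 16 hrs SB, at 7.40 rpm.

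The first comparison asked which miRNAs changed when Smad2/3 activation was blocked. By the criteria of the methods, a miRNA was called where its level was higher by 25% or lower by 20% or more and the Z-score for its reads passed the two-sided 0.05 level, a score that compares a pair of libraries and not the conditions. Between 0 hr and 16 hrs SB 2 of the 7 miRNAs were called higher and 2 lower, while 15.3% and 30.2% of all listed miRNAs were called in these directions. Higher calls were 33.7% of all calls, and 17.96% to 55.8% under the other scalings. The median log2 ratio was 0.66 over the 7 names, which is the value of miR-3473d on 11 and 18 reads, and -0.19 over all listed miRNAs. With miR-3096b-5p left out, 1 of 6 was called higher and 2 lower, and the median was 0.30. miR-3096-5p rose by a log2 ratio of 2.99 (2.93 to 3.06), or 7.97-fold. miR-3096b-5p, with nearly the same reads, rose by 2.99 as well. Of the 458 miRNAs that summed to at least 100 reads, 3 had a larger log2 ratio than miR-3096-5p. miR-3473 fell, with a log2 ratio of -1.54 (-1.92 to -1.18), and so did miR-3096b-3p, with -1.44 (-2.24 to -0.69). miR-3473b had a log2 ratio of -0.06 and was not called, and this ratio was 0.12 to 0.50 under 5 of 6 other scalings of the libraries. miR-3096-3p and miR-3473d had log2 ratios of 0.74 and 0.66 and were not called, and their intervals included 0.

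The second comparison asked which miRNAs changed when Alk4* was induced after the inhibition. Between 16 hrs SB and 16+12 hrs 4 of the 7 miRNAs were called lower and 1 higher, while 17.9% of all listed miRNAs were called lower and 41.7% higher. Higher calls were 70.0% of all calls, and 37.2% to 65.9% under the other scalings. The median log2 ratio was -1.42 over the 7 names and 0.38 over all listed miRNAs. With miR-3096b-5p left out, 3 of 6 were called lower and 1 higher, and the median was -1.04. miR-3096-5p fell 16.3-fold, with a log2 ratio of -4.03 (-4.13 to -3.93), and miR-3096b-5p fell by 4.04 on the log2 scale. miR-3096b-5p and miR-3096-5p were at places 2 and 3 from the lowest ratio among the 458 miRNAs with at least 100 reads. miR-3096-3p fell with a log2 ratio of -2.05 (-4.06 to -0.46), from 19 reads to 4, and this ratio was -0.93 with a pseudocount of 1 rpm. miR-3473b fell 2.68-fold, with a log2 ratio of -1.42 (-1.44 to -1.41), at place 26 from the lowest. miR-3473 rose 5.04-fold, with a log2 ratio of 2.33 (1.99 to 2.69), at place 12 from the highest. miR-3096b-3p and miR-3473d had log2 ratios of -0.11 (-1.12 to 0.89) and -0.65 (-1.93 to 0.54) and were not called. This comparison shares the 16 hrs SB library with the first, so a high value in that library raises one ratio and lowers the other.

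**Figure D3:**
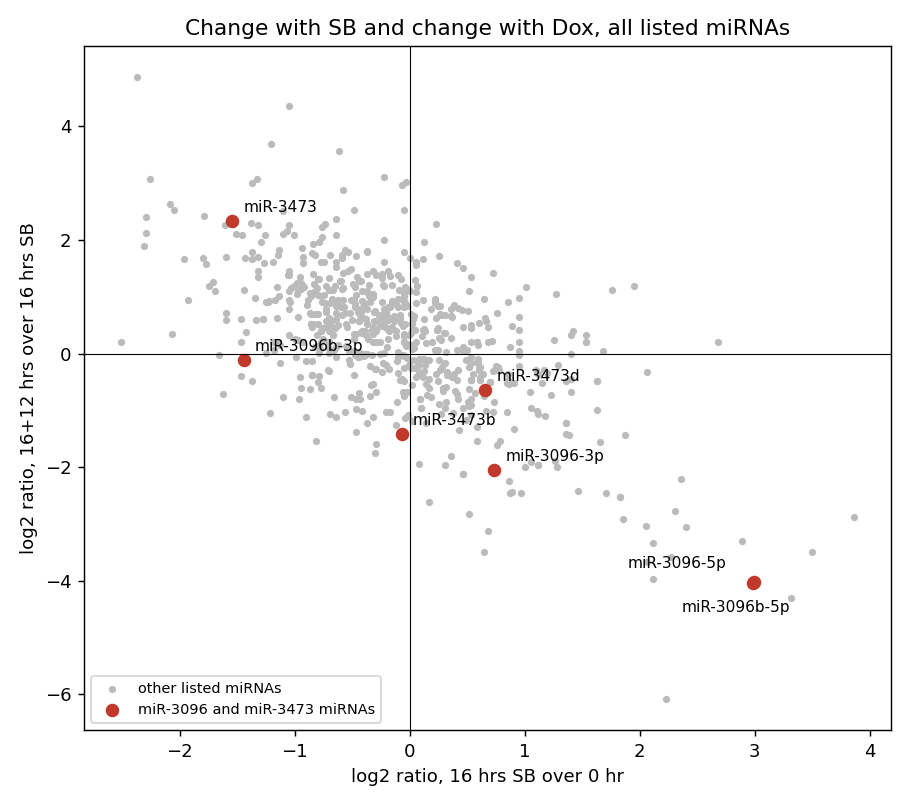
Log2 ratio of 16+12 hrs over 16 hrs SB (vertical axis) against log2 ratio of 16 hrs SB over 0 hr (horizontal axis) for the 693 listed miRNAs, with the 7 miRNAs of the group in red. The 2 miR-3096 5p names lie on each other at 2.99 and about -4.03, miR-3473 is at -1.54 and 2.33, and miR-3473b is at -0.06 and -1.42; both axes use the 16 hrs SB library.

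The Dox library was compared last with the 0 hr library. At 16+12 hrs 4 of the 7 miRNAs were called lower than at 0 hr and 1 higher, while 19.8% of all listed miRNAs were called lower and 30.6% higher. Higher calls were 60.7% of all calls, and 37.5% to 50.1% under the other scalings. The median log2 ratio was -1.05 over the 7 names and 0.19 over all listed miRNAs. With miR-3096b-5p left out, 3 of 6 were called lower and 1 higher, and the median was -1.17. miR-3473b had a log2 ratio of -1.49 (-1.50 to -1.48), at place 11 from the lowest of the 458 miRNAs with at least 100 reads. miR-3096-5p was called lower than at 0 hr, with a log2 ratio of -1.04 (-1.15 to -0.92), and miR-3096b-5p gave -1.05. miR-3096b-3p gave -1.55 (-2.43 to -0.74). miR-3473 was called higher, with a log2 ratio of 0.79 (0.55 to 1.03). miR-3096-3p, with -1.31, and miR-3473d, with 0.01, were not called.

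The directions of miR-3096-5p and miR-3473 held under all scalings tried, while the median of all listed miRNAs crossed 0 between scalings. The log2 ratio of miR-3096-5p was 2.75 to 3.25 in the first comparison and -4.60 to -4.01 in the second over all alternatives. For miR-3473 these ranges were -1.78 to -1.28 and 1.76 to 2.33. miR-3473b was lower in the Dox library under every alternative, with -2.24 to -1.42 against 16 hrs SB.

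**Figure D4:**
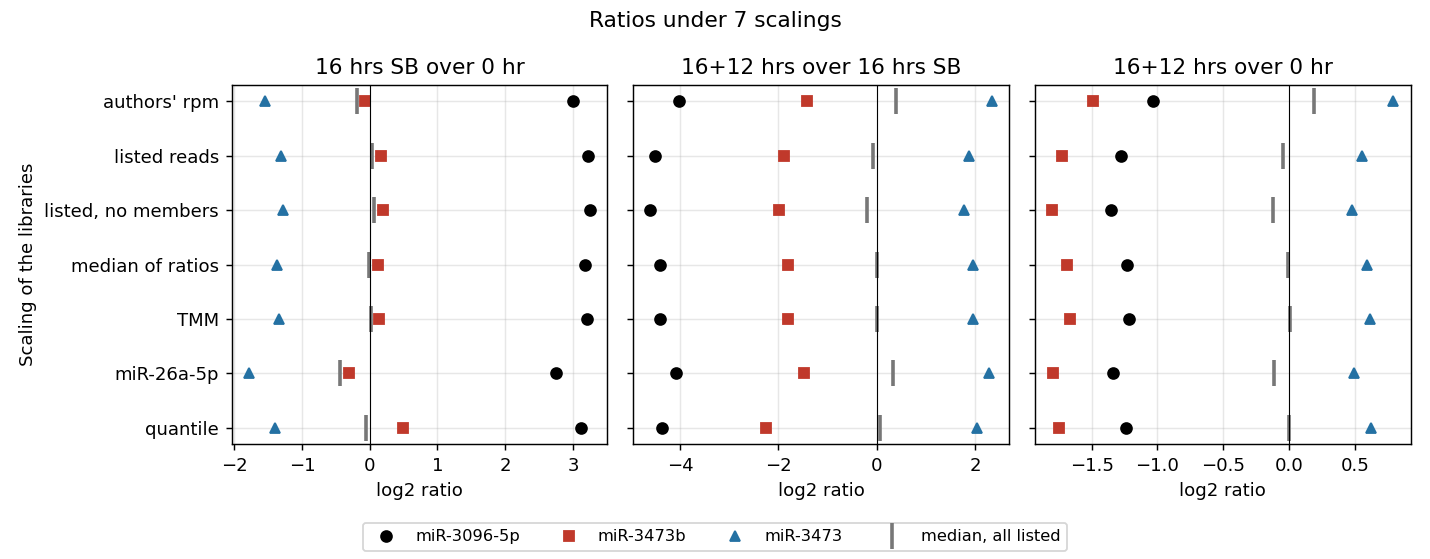
Log2 ratios (horizontal axes) of miR-3096-5p (black circles), miR-3473b (red squares) and miR-3473 (blue triangles) and the median of all listed miRNAs (grey bars) under the authors' rpm and 6 other scalings (rows), for the 3 comparisons (panels). For 16 hrs SB over 0 hr the squares lie on both sides of 0, from -0.31 to 0.50, and in the other panels each of the 3 miRNAs stays on 1 side of 0.

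The miRNAs with the pattern most like that of miR-3096-5p were found by the distance between log2 rpm values, each centred on its mean over the 3 libraries, among 374 miRNAs with at least 10 rpm in some library. The nearest were miR-99a-5p at a distance of 0.25, miR-100-5p (0.56), miR-5117-3p (0.65), let-7b-5p (0.66) and miR-199a-5p (0.69), where the median distance was 3.34. miR-99a-5p, miR-100-5p and miR-199a-5p reached 10 rpm in the SB library alone, so that their high level there was also what let them enter this search. let-7b-5p, of the let-7 family that is typical of differentiated cells, was the most abundant of them with 211, 880 and 69.2 rpm. miR-5117-3p had 16.0, 69.3 and 6.87 rpm, and its log2 ratios were 2.12 (1.88 to 2.36) and -3.33 (-3.71 to -2.98). Like miR-3096-5p it has a hairpin gene that GENCODE classes as a snoRNA. Of the others in that class, miR-3096-3p and miR-677-3p were also highest in the SB library, on few reads. The reads of miR-3096-3p were 11, 19 and 4, as given above, and those of miR-677-3p were 4, 11 and 6, with log2 ratios of 1.41 and -0.68. The remaining ones were highest in another library. miR-677-5p was at 9.95, 6.16 and 2.93 rpm, miR-3068-5p at 7.48, 7.57 and 10.9 rpm and miR-3068-3p at 3.38, 4.67 and 13.2 rpm.

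miR-199a-5p is also a marker of fibroblasts, which serve as feeder cells for ES cells. All 10 fibroblast miRNAs of the marker list were listed, with 9 distinct values because miR-199a-3p and miR-199b-3p had the same reads. Their summed level was 1797 rpm in the 0 hr library, 4635.0 rpm in the SB library and 2467 rpm in the Dox library, so the SB library was high here. The ES cell miRNAs had their lowest sum in that library through miR-290-5p. Of those 18 miRNAs, 5 were called higher and 5 lower in the first comparison. miR-21-5p supplied much of the fibroblast sum, with 1159, 2486 and 2041 rpm, and miR-199a-3p had 547, 1943 and 337 rpm. Of the 10, 9 were called higher in the first comparison and 8 were called lower in the second, with median log2 ratios of 1.83 and -2.53. Between 0 hr and 16+12 hrs 3 were called higher and 5 lower, with a median of -0.70, although the sum was higher at 16+12 hrs. None of the markers was at 0 reads, but neither was any other listed miRNA, and miR-214-3p had 16, 78 and 1 reads. The part of these cells, or of the medium, in the level of miR-3096-5p was not tested, and a change in the number of such cells cannot be told apart here from a change in RNA per cell.

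The nearest miRNAs to miR-3473b were miR-431-5p at a distance of 0.24, miR-374-5p (0.31), miR-5121 (0.31), miR-574-3p (0.41) and miR-15b-5p (0.44), where the median distance was 1.56. All of them were far less abundant, at 118 rpm or below in every library. The closest, miR-431-5p, was at 25.4, 24.7 and 11.2 rpm, and its log2 ratios were -0.04 for the first comparison and -1.14 for the second. miR-374-5p was at 93.7, 92.7 and 44.1 rpm, and its ratios were -0.02 and -1.07. miR-26a-5p, which the study used as a control, had log2 ratios of 0.24 and 0.06, and miR-290-5p, the most abundant miRNA of the 0 hr library, had -0.98 and 1.05. miR-674-5p, with the seed of miR-3473d, had 1396, 1166 and 1164 rpm and was not called in any comparison.

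**Figure D5:**
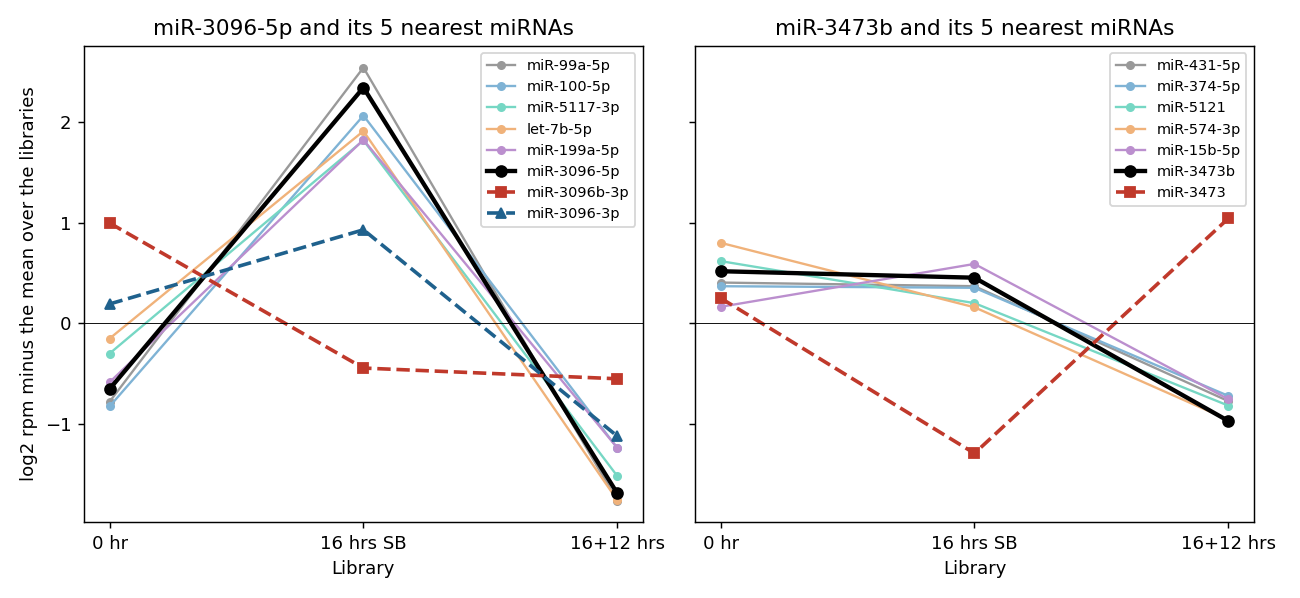
Log2 rpm minus its mean over the 3 libraries (vertical axes) in each library (horizontal axes) for miR-3096-5p (left, black) and miR-3473b (right, black), each with its 5 nearest miRNAs (thin lines) and with other members (dashed): miR-3096b-3p (red squares) and miR-3096-3p (blue triangles) on the left, and miR-3473 (red squares) on the right. The black line peaks at 16 hrs SB on the left, as does miR-3096-3p with 11, 19 and 4 reads, whereas miR-3096b-3p is highest at 0 hr, and on the right the black line drops at 16+12 hrs, where miR-3473 is highest.

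Of the listed miRNAs, 93 have a number of 1900 or higher. Summed, they had 22356 rpm in the 0 hr library, 23744 rpm in the SB library and 9502 rpm in the Dox library, of which miR-3473b alone supplied 90.7%, 81.6% and 76.1%.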

How the data were processed

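The deposited files give 1 level per miRNA and library in RPM, which the authors obtained by scaling the reads of a miRNA to 1000000 reads. According to the methods, adaptors were trimmed with the FASTX clipper, reads longer than 16 bases were aligned with Bowtie 0.12.7 to the mature sequences and then the hairpins of miRBase release 18 without mismatches, 2 runs were pooled per library, and a miRNA was listed from 10 reads over the libraries upward. Where a read fitted several miRNAs, the one nearest in length received it, and each of them did where lengths were equal. The genome build is not given in the sources used here.

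Every one of the 2079 values was a whole multiple of 1 step per library (0.0913, 0.0881 and 0.101 rpm) within 0.0001 of a read, which gave the reads and the divisors of 10955686, 11354692 and 9895513 reads. These are smaller than the sequenced totals that the study states, and which reads the divisor leaves out is not given in the sources used here. With 1 library per condition no test of a condition and no count model was used. Levels have Poisson and shares and ratios Clopper-Pearson intervals (SciPy 1.17.1). Only the ratio intervals were tried on simulated data, which were drawn with the counting error that these intervals assume. Ratios are of rpm without a pseudocount. Named miRNAs were those of the group, the 5 nearest in pattern to miR-3096-5p and to miR-3473b, those sharing a seed or 12 bases with the group, miR-26a-5p, miR-290-5p and the marker lists. Outside this rule, the other miRNAs with a hairpin gene classed as snoRNA and those with most copies in transcripts were named after their values were seen. The members and lists were chosen with earlier results of these data known. Sequences came from RefSeq (GRCm38.p6) for 3 of the 7 miRNAs and 520 of the 693 listed, 4 of them through an older name, hairpin genes from GENCODE, and folding from RNAfold 2.7.2. Alternatives were 6 scalings (reads on listed miRNAs with and without the group, median of ratios, TMM, miR-26a-5p and quantile normalization), a pseudocount of 1 rpm and a fold of at least 2.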

Additional observations from a re-analysis of the deposited data

How the results depend on the processing

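The log2 ratios of miR-3096-5p kept their direction and their call in all 3 comparisons under all 8 alternatives, and so did those of miR-3473b against the Dox library. The log2 ratio of miR-3473b for 16 hrs SB over 0 hr turned from -0.06 to 0.17 when the libraries were scaled to their reads on listed miRNAs, 0.20 without the group in those reads, 0.12 by the median of ratios, 0.14 by TMM and 0.50 by quantile normalization, and it was called, as higher, under the last of these alone. The log2 ratio of miR-3473d for 16+12 hrs over 0 hr turned from 0.01 to -0.23, -0.30, -0.19, -0.17 and -0.20 under the same scalings in that order and to -0.29 when scaled to miR-26a-5p, always without a call. The median of all listed miRNAs moved from -0.19 to between -0.44 and 0.07 for 16 hrs SB over 0 hr and from 0.38 to between -0.20 and 0.32 for 16+12 hrs over 16 hrs SB under the other scalings. Calls among all listed miRNAs were 70.0% higher in the second comparison with the authors' rpm and 37.2% to 65.9% higher under the other scalings. The cause of these shifts was not tested. A fold of at least 2 left 116 of 315 calls in the first comparison, 221 of 413 in the second and 150 of 349 in the third. For 16+12 hrs over 0 hr, miR-3473 (0.79) was not called at a fold of at least 2, and miR-3096-3p was called lower when scaled to the listed reads without the group (-1.63) or to miR-26a-5p (-1.61). For 16+12 hrs over 16 hrs SB, miR-3473d was called lower when scaled to the listed reads with the group (-1.12) or without it (-1.22). The number of the 7 miRNAs called stayed within 1.5 times its value throughout. The 3p arms and miR-3473d had 4 to 55 reads, which limits what their ratios can show. No paired analysis was possible because each condition had 1 library.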
